A study of Mus musculus with 12 samples.

Results

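Pairs of libraries from 2 Etl4 knockout (KO) lines of the same parental line of mouse embryonic stem cells (ESCs), OdG, were compared with each other: line 2 against line 1. Each line was represented by 2 RNA-seq libraries, so that 4 of the 12 libraries of the series make up the comparison. These libraries were picked by their labels, and no measured value entered that rule. The comparison was nonetheless chosen with earlier results of these data known. All lines were androgenetic haploid ESC lines of C57BL/6 background, a type derived with 1 chromosome set of paternal origin. The RNA counts do not show how many cells of a library were haploid. Line 1 and line 2 both have the genotype Etl4 KO, and the labels describe neither the edit nor how the lines were derived. The other OdG group was wild type (WT; 2 libraries), which entered the filter and the estimate of the spread but not the contrast, and whose levels are given for reference. EG1, another parental line of the same background, had 3 WT and 3 Etl4 KO libraries. Whether replicate libraries stand for separate cultures is not in the labels. The p-values therefore reflect spread among libraries alone, and that spread may be technical.

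The study's title concerns Etl4 deficiency and the stability of the haploid state. Since both lines are labelled Etl4 KO, this comparison shows how far the libraries of lines with 1 genotype label and 1 parent stood apart. With 1 line a side, differences of line, allele, culture and handling cannot be told apart. In mammals, DNA methylation keeps a set of germline genes silent outside germ cells and marks imprinted genes by parent of origin. In cells with paternal chromosomes only, genes expressed from the maternal allele have no maternal copy, so their reads come from the paternal one.

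Library totals ran from 16110028 to 18774032 counts in the OdG table, and levels are given as CPM (counts divided by each library's TMM-normalised total). Across the genes tested, replicate libraries correlated at r of 0.994 to 0.995 within each line and at 0.978 to 0.979 between the lines, a correlation over genes and not over samples. Etl4 stood at 210.4 and 206 CPM in WT, 97.2 and 101 in line 1 and 109.6 and 114 in line 2. Both lines lay below WT but kept a large part of its level, and since the labels do not describe the edit, these gene-level counts cannot check the knockout. Line 2 lay slightly above line 1 (log2 0.18 ± 0.043, adjusted p = 0.0032). That call ended without line 1 replicate 1 (adjusted p = 0.067) or without line 2 replicate 2 (0.072). The ESC markers Pou5f1, Sox2, Nanog, Zfp42, Esrrb and Dppa5a were abundant in both lines, with Pou5f1 at 1218 and 1232 CPM in line 1 and 1113 and 1129 in line 2 and Nanog at 958 and 988 CPM in line 1 and 968 and 958 in line 2. The 4 Y-linked markers were too low to be tested. With 2 libraries against 2, an exact permutation test cannot go below p = 0.333, so all tests here come from the fit across genes.

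Of 14413 genes tested, 5454 were called at an adjusted p under 0.05 (37.8%; edgeR's quasi-likelihood test), 2680 higher in line 2 (18.6%) and 2774 lower (19.2%). These percentages are the background for every count given here. The libraries of the 2 lines did not overlap at 10188 of the 14413 genes (70.7%) and at 5453 of the 5454 called genes. A lack of overlap is therefore not particular to the genes described below. Most differences were small: the median absolute log2 difference of the called genes was 0.38, and 82.1% of them differed by less than a log2 of 1. The larger differences were uneven in direction, since of the 975 genes that differed by a log2 of 1 or more (6.76%) 709 were higher in line 2 (4.92%) and 266 lower (1.85%). A test against a 2-fold difference called 183 genes higher and 51 lower. Of the 709 higher genes, 369 were under 1 CPM in line 1, and their median was 0.938 CPM in line 1 and 2.94 CPM in line 2. The 266 lower genes had a median of 5.45 CPM in line 1 and 2.09 CPM in line 2. The median log2 difference over all genes tested was -0.0027.

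Of the 38 lists described, that of germline genes silenced by DNA methylation in other cells had the largest share of tested members called. Many of their products work in meiosis or in the defence against transposons. The listed genes together summed to 660 and 689 CPM in WT, 604 and 603 in line 1 and 1307 and 1274 in line 2. Of 34 listed genes, 32 were tested, and 31 were higher in line 2 and 0 lower, with a median log2 difference of 1.54; 25 of them differed by at least 1. The remaining member, Dmrtb1, was at 1.03 and 1.02 CPM in line 1 and 1.59 and 1.4 in line 2 (adjusted p = 0.24). The list was drawn up with earlier results of these data known and carries no test of its own. Promoter sequences of 4 members are shown because they hold words bound by known repressors of germline genes: CACGTG, the E-box of the MAX and MGA proteins, and TCCCGC, a core word of E2F sites. The windows run from 250 bases before to 50 after the start site (RefSeq, GRCm38.p6), written 5′ to 3′ on the gene's strand. Capitals mark CACGTG, which reads alike on both strands, and TCCCGC in either orientation. Sycp1 lies at chr3:102936051-102936350, minus strand, Brdt at chr5:107330944-107331243, plus strand, Taf7l at chrX:134476441-134476740, minus strand and Stag3 at chr5:138280259-138280558, plus strand.
Sycp1: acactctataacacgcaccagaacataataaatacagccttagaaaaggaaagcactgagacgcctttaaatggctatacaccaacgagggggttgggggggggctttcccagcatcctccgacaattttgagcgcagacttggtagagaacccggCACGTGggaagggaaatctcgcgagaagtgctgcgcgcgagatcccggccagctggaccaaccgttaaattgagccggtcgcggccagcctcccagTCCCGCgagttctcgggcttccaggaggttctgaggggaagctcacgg
Brdt: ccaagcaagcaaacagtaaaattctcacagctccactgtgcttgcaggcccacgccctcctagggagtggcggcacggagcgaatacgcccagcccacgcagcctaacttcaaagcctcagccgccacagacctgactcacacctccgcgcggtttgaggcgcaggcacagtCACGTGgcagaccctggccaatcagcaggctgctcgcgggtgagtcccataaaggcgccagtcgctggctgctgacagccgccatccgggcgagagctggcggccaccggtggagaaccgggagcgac
Taf7l: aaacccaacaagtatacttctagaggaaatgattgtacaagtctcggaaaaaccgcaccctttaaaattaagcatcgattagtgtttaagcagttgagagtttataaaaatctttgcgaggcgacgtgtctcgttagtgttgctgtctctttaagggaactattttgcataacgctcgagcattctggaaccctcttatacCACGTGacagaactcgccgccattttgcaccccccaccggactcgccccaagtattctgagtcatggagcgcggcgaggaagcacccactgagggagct
Stag3: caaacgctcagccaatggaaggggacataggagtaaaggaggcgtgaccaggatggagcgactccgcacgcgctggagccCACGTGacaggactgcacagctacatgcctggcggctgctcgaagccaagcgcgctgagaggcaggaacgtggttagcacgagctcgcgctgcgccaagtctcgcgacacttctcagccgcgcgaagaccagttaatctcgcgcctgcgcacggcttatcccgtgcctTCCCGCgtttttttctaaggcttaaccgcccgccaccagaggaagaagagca

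CACGTG stood in a window of 13 of the 29 tested germline genes with a RefSeq window (44.8%), against 11.7% of the 11346 tested genes with one. TCCCGC on either strand stood in 13 of 29 (44.8%), against 39.2%. Of the 527 genes with a window that were higher in line 2 by a log2 of at least 1, 11% held CACGTG. A match describes the letters only.

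Sycp1, a transverse filament protein of the synaptonemal complex, was at 10 and 13.2 CPM in WT, 11.6 and 12.8 in line 1 and 56 and 52.6 in line 2 (log2 2.16 ± 0.099, adjusted p = 1.6e-11). Brdt, a testis bromodomain protein, was at 6.66 and 6.83 CPM in WT, 7.45 and 6.79 in line 1 and 32.2 and 30.1 in line 2 (log2 2.12 ± 0.10, adjusted p = 3.5e-11). Taf7l, a germ-cell relative of a TFIID subunit, was at 16.5 and 14.8 CPM in WT, 10.8 and 11 in line 1 and 37.1 and 38.3 in line 2 (log2 1.79 ± 0.090, adjusted p = 5.4e-11). In all 3 genes both line 2 libraries lay above every other library, though 70.7% of all tested genes had no overlap between the lines. Stag3, the meiotic cohesin subunit, was at 63.8 and 57.9 CPM in WT, 36.9 and 38.3 in line 1 and 82.4 and 87.4 in line 2 (log2 1.18 ± 0.060, adjusted p = 7e-11), so that line 1 lay below WT and line 2 above it.

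The largest difference in the list was at Fkbp6, a co-chaperone of meiosis and of piRNA production, at 0.753 and 0.831 CPM in WT, 0.762 and 0.825 in line 1 and 25 and 22.6 in line 2 (log2 4.90 ± 0.18, adjusted p = 7.3e-13). The piRNA pathway, which silences transposons in germ cells, was represented by Piwil2, Mov10l1, Asz1, Mael, Rnf17 and Tdrd1. Piwil2, the Piwi protein Mili, was at 39.1 and 37.8 CPM in line 1 and 101 and 99.3 in line 2 (log2 1.38 ± 0.052, adjusted p = 1.4e-12). Rnf17 was at 74.8 and 82 CPM in line 1 and 181 and 180.3 in line 2 (log2 1.21 ± 0.045, adjusted p = 1.1e-12). The RNA-binding protein genes Dazl (21.9 and 22.2 CPM in line 1 and 88.1 and 88.1 in line 2) and Ddx4 (10.6 and 11 CPM in line 1 and 26.6 and 25.1 in line 2) were also higher (log2 2.0 and 1.26). Smc1b, another meiotic cohesin subunit, was at 41.8 and 38.4 CPM in WT, 20.3 and 19.7 in line 1 and 42.1 and 38 in line 2, so that line 2 overlapped WT and line 1 lay below both. Among the 32 tested genes, both line 2 libraries lay above both WT libraries in 30 (39.1% over all genes), and both line 1 libraries lay below both WT libraries in 20 (38.6% over all genes) and above them in 3 (36.8%). Tex19.1 and Rpl10l were already abundant in line 1 and differed least, with log2 0.24 and log2 0.35.

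**Figure D1:**
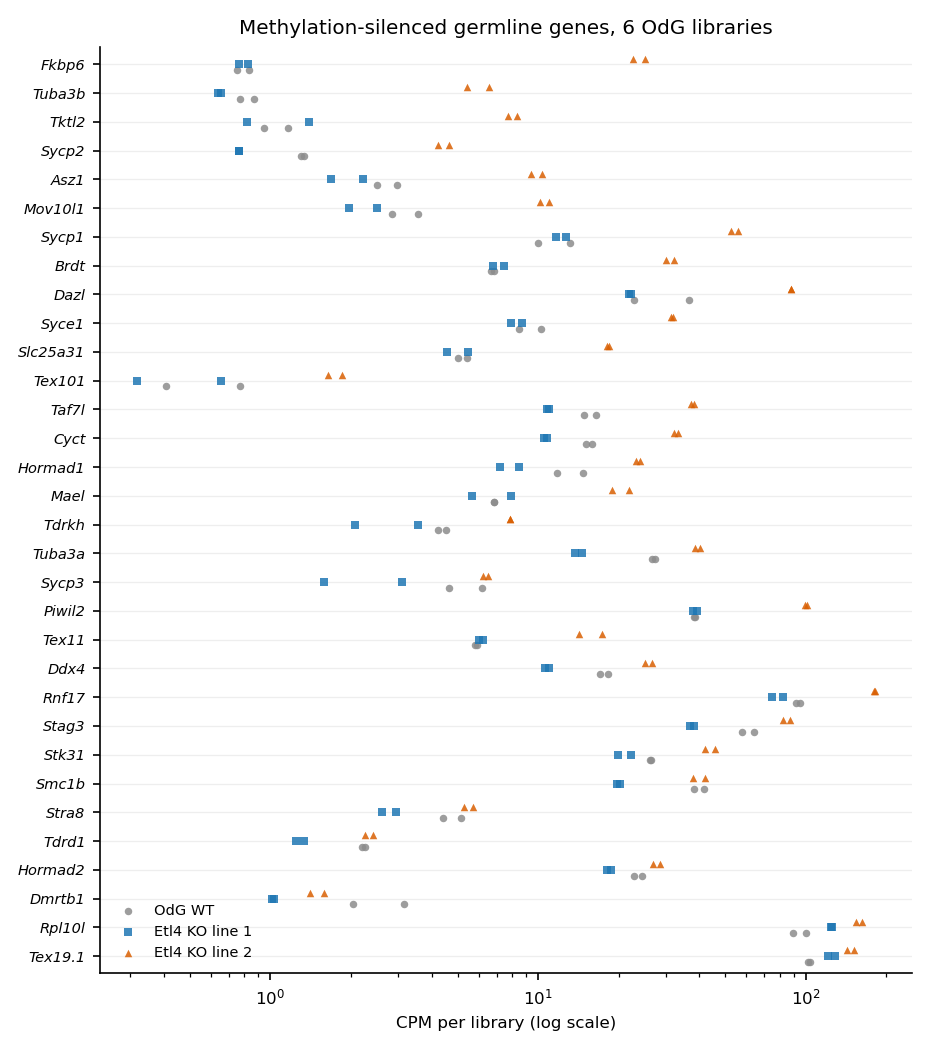
CPM of the 32 tested germline genes in each OdG library, on a log axis (2 WT, 2 line 1 and 2 line 2 libraries per gene), ordered by the log2 difference between the lines. The line 2 libraries lie to the right of the line 1 libraries in every row, from Fkbp6 with a log2 difference of 4.90 down to Tex19.1 with 0.24.

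Chromosome X held an unusual share of the genes that were higher in line 2. Of its 600 tested genes, 101 were higher by a log2 of at least 1 (16.8%), against 4.41% of autosomal genes, while 2 were lower (0.333% against 1.92%). Among genes with a mean of at least 10 CPM the shares were 28 of 389 (7.2%) on X and 110 of 9030 (1.22%) on autosomes. At that level the median log2 difference of X-linked genes was 0.01, against -0.02 for autosomal genes. Over all 600 tested X-linked genes the median was 0.09, against -0.0047 for autosomal genes. Of these X-linked genes 32.3% were called higher and 17.7% lower, against 18.0% and 19.3% of autosomal genes. Chromosome 12 came next with 7.98% of genes higher by that size. Of the 101 X-linked genes, 13 belonged to the Rhox cluster, 7 to the Magea family and 3 to the Xlr family.

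**Figure D2:**
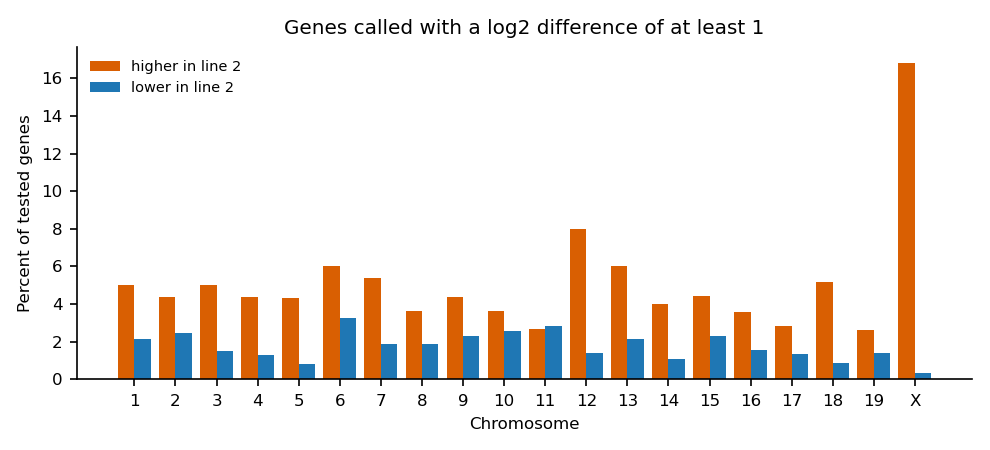
Percent of tested genes on each chromosome called and differing by a log2 of 1 or more, as higher in line 2 (orange bars) and lower (blue bars). Chromosome X reaches 16.8% higher, above every autosome, while its share of lower genes is 0.333%.

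The Rhox cluster encodes reproductive homeobox proteins of testis, ovary and placenta on chromosome X. Of 32 listed genes 15 were tested, and 13 were higher in line 2 and 1 lower, with a median log2 difference of 2.23; 17 were too low to be tested or absent from the table. Rhox5 (chromosome X, 37754608 to 37808878), the founding member and known for its promoter methylation, was at 8.81 and 8.25 CPM in WT, 13.4 and 14.3 in line 1 and 140.4 and 129.6 in line 2 (log2 3.28 ± 0.069, adjusted p = 9e-16). Rhox13 had 0.232 and 0.178 CPM in WT, 0.218 and 0.127 in line 1 and 8.96 and 9.1 in line 2 (log2 5.63 ± 0.30, adjusted p = 1.1e-10), and it alone of all genes had at most 10 counts over both libraries of one line and at least 5 CPM in the other. Rhox1 was at 5.33 and 5.21 CPM in line 1 and 25.2 and 22.7 in line 2 (log2 2.18 ± 0.12, adjusted p = 1.1e-10). For all 3 genes the line 2 libraries lay far above those of line 1. The cluster did not move as a whole, since Rhox6 was slightly lower (19.3 and 18.5 CPM in line 1 and 14.9 and 15.6 in line 2; log2 -0.31 ± 0.10, adjusted p = 0.02; a call lost with DESeq2 and without line 1 replicate 1 or either line 2 replicate) and Rhox9 was at 11.9 and 11.3 CPM in line 1 and 11.6 and 12.6 in line 2 (adjusted p = 0.76). Rhox2g had 0 counts in line 1 and 24 in line 2, at least 8-fold higher against a floor of 3 counts per line. With it at that bound the median was again 2.23. Rhox2 and Rhox4 copies are near-identical, and how reads were divided among them is uncertain.

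Other X-linked families were less even. All 7 tested Magea genes, antigens of testis and tumours, were higher, from log2 1.82 (Magea4) to 3.38 (Magea6). Magea5 was at 0.979 and 0.889 CPM in line 1 and 10.4 and 8.99 in line 2 (log2 3.36 ± 0.23, adjusted p = 3e-09). Of 2 tested Mageb genes 1 was higher: Mageb4 was at 2.83 and 2.6 CPM in line 1 and 20.1 and 19.7 in line 2 (log2 2.87 ± 0.14, adjusted p = 3.3e-11), and Mageb16 at 36.3 and 31.1 CPM in line 1 and 28.3 and 28.6 in line 2 (log2 -0.25, adjusted p = 0.066). The Magea copies also resemble each other closely. Usp26, a testis deubiquitinase gene, was at 15 and 13 CPM in WT, 21.2 and 20.2 in line 1 and 111 and 113 in line 2 (log2 2.43 ± 0.066, adjusted p = 1.7e-14). The leucine zipper gene Luzp4 (0.381 and 0.508 CPM in line 1 and 5.24 and 5.22 in line 2; log2 3.55), Pet2 (0.435 and 0.698 CPM in line 1 and 7.56 and 7.81 in line 2; log2 3.77) and Nxf2 (1.9 and 1.97 CPM in line 1 and 10.4 and 12.2 in line 2; log2 2.55) were also low in line 1. Of 4 tested Nxf genes, not all X-linked, 2 were higher and 1 lower. The Xlr family divided by copy, 4 of 9 tested being higher and 0 lower (median log2 0.18), with Xlr3c, Xlr4c and Xlr5c higher by log2 1.46, 1.26 and 1.32, while Xlr3a and Xlr5a were at -0.02 and -0.03 (adjusted p = 0.79 and 0.83). Of the 6 genes of the X-inactivation centre 0 were higher and 1 lower: Xist was at 25.3 and 23.2 CPM in line 1 and 22.4 and 20.1 in line 2 (adjusted p = 0.14), and Ftx was lower (log2 -0.72 ± 0.10, adjusted p = 2.3e-05).

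Genes of the 2-cell stage, which a small fraction of ESCs express at a time, were low in both lines and higher in line 2. Of 30 listed genes 19 were tested, 16 were higher and 0 lower, with a median log2 difference of 1.80. Zscan4d, of a family that acts at telomeres, was at 1.33 and 1.42 CPM in WT, 2.18 and 1.71 in line 1 and 7.26 and 7.81 in line 2 (log2 1.94 ± 0.19, adjusted p = 3.4e-07). Zfp352 was at 0.816 and 0.444 CPM in line 1 and 2.5 and 2.53 in line 2 (log2 1.96). In bulk libraries, more cells in that state and more RNA per cell cannot be told apart. Zscan4, Usp17l and Tcstv genes are near-identical families, so their members are not independent. In EG1, whose libraries share nothing with these, 18 of the 19 were lower in Etl4 KO than in WT and 0 higher (7.66% of genes were called there in either direction). The PRAME-like family, expressed in germ cells and early embryos, had 9 tested members, 6 higher and 1 lower (median log2 2.16). Pramel7, which is known to lower DNA methylation in ESCs, was at 0.762 and 0.571 CPM in line 1 and 5.43 and 5.06 in line 2 (log2 2.95 ± 0.29, adjusted p = 3.4e-07), and Pramef12, the abundant member, was lower (65.1 and 70.5 CPM in line 1 and 56 and 53.5 in line 2; log2 -0.31 ± 0.059, adjusted p = 0.00049).

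Imprinted genes differed strongly at 2 regions whose control regions are methylated on the paternal chromosome. In the Dlk1-Dio3 region of chromosome 12 the non-coding RNA genes Meg3, Rian and Mirg are normally expressed from the maternal chromosome, and Dlk1, Rtl1 and Dio3 from the paternal one. Meg3 (chromosome 12, 109540996 to 109571729) was at 0.869 and 0.95 CPM in WT, 0.762 and 0.635 in line 1 and 68.4 and 71.7 in line 2 (log2 6.62 ± 0.13, adjusted p = 9e-16). Rian (chromosome 12, 109603945 to 109661716) was at 0.598 and 0.571 CPM in line 1 and 53.7 and 57.3 in line 2 (log2 6.55 ± 0.15, adjusted p = 1.9e-15), and Mirg had 2 counts in line 1 and 112 in line 2, a ratio of 55.9 (exact 95% interval for counting error 15.1 to 467; log2 5.64 ± 0.53, adjusted p = 1.8e-07). For Meg3, WT and line 1 lay under 1 CPM in every library. Dlk1 was at 4.24 and 3.68 CPM in line 1 and 2.26 and 3.09 in line 2 (log2 -0.57 ± 0.22, adjusted p = 0.055), and it passed the threshold, lower in line 2, in 6 alternatives, among them the fit of the 4 KO libraries alone (adjusted p = 0.033). Dio3 was at 0.49 and 0.698 CPM in line 1 and 1.28 and 2.02 in line 2 (log2 1.49 ± 0.40, adjusted p = 0.0075; a call lost with DESeq2 and without line 1 replicate 1 or line 2 replicate 2). In EG1 KO against WT Meg3 was at log2 0.09, adjusted p = 0.23, between libraries that expressed it at 94.8 and 101 CPM on average.

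The H19 and Igf2 pair of chromosome 7 went in opposite directions. The 2 genes share enhancers, and methylation of the region between them on the paternal chromosome is known to go with Igf2 expression and H19 silence. H19, a non-coding RNA, was at 4.23 and 2.55 CPM in WT, 2.56 and 3.3 in line 1 and 26.9 and 25.8 in line 2 (log2 3.18 ± 0.16, adjusted p = 4.8e-11). Igf2, the growth factor, was at 117 and 115 CPM in WT, 98.5 and 98.7 in line 1 and 17.3 and 16.6 in line 2 (log2 -2.54 ± 0.056, adjusted p = 1e-15), and its antisense neighbour Igf2os was also lower (5.33 and 5.33 CPM in line 1 and 1.04 and 0.562 in line 2; log2 -2.74). Reads of Igf2 and Igf2os cannot be told apart without strand, which is not given in the sources used here. Over the whole list of maternally expressed genes, 7 of 17 tested were higher and 2 lower, with a median log2 of 0.24. Grb10, an adaptor that restrains growth signalling, was at 19.9 and 20.5 CPM in line 1 and 68.8 and 65.5 in line 2 (log2 1.73 ± 0.071, adjusted p = 3.9e-12). Igf2r, the receptor that clears IGF2, was at 200 and 195 CPM in WT, 130.2 and 126 in line 1 and 179 and 189 in line 2 (log2 0.53 ± 0.041, adjusted p = 1.8e-08), and Cdkn1c, a cell cycle inhibitor, at 5.27 and 5.46 CPM in WT, 3.15 and 2.54 in line 1 and 7.07 and 6.01 in line 2 (log2 1.18 ± 0.18, adjusted p = 5.3e-05). For Igf2r line 1 lay far below WT, and line 2 lay between them.

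Of 25 tested paternally expressed genes, 4 were higher in line 2 and 10 lower, with a median log2 of -0.04. The 3 large rises were at Gab1, an adaptor of receptor tyrosine kinases, Smoc1, a secreted calcium-binding protein, and Slc38a4, an amino acid transporter, which are imprinted in the placenta by a histone mark and not by DNA methylation. Gab1 (chromosome 8, 80764431 to 80880519) was at 36.9 and 32.7 CPM in WT, 38 and 39.6 in line 1 and 199 and 198 in line 2 (log2 2.36 ± 0.051, adjusted p = 9e-16). Slc38a4 was at 84.4 and 86 CPM in WT, 70.2 and 69.7 in line 1 and 163 and 165 in line 2 (log2 1.23 ± 0.040, adjusted p = 2e-13), and Smoc1 at 8.63 and 9.02 CPM in WT, 7.56 and 8.06 in line 1 and 31.2 and 27.4 in line 2 (log2 1.91). For each of the 3, both line 2 libraries lay above all WT and line 1 libraries. Besides Igf2, Sgce was lower (20.6 and 21.3 CPM in line 1 and 9.51 and 8.09 in line 2; log2 -1.25 ± 0.10, adjusted p = 3.7e-08), while its neighbour Peg10 (log2 -0.41), Plagl1 (log2 -0.44) and the stress regulator Impact (log2 -0.44) were lower by smaller amounts. Peg3 was at 149 and 145 CPM in line 1 and 134 and 143 in line 2 (adjusted p = 0.16), and the Prader-Willi region gene Ndn at 30.1 and 31.5 CPM in line 1 and 31.2 and 32.5 in line 2 (adjusted p = 0.65).

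**Figure D3:**
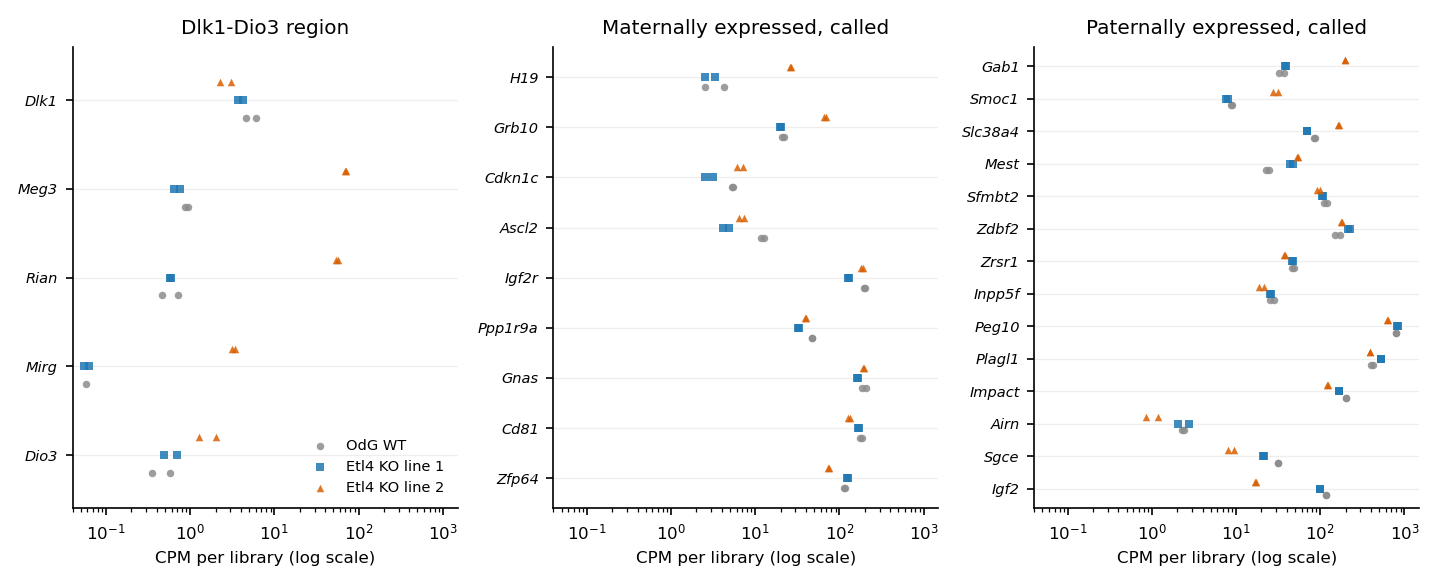
CPM per library on a log axis for the tested genes of the Dlk1-Dio3 region and for the called maternally and paternally expressed imprinted genes (2 libraries each of WT, line 1 and line 2; values of 0 are not drawn). Meg3, Rian, Mirg, H19 and Gab1 stand apart in line 2, while Igf2 is at 17.3 and 16.6 CPM in line 2 against 98.5 and 98.7 in line 1.

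The genes that write and keep DNA methylation were often called, but most differed by small amounts. Of 23 tested genes of this machinery 14 were called, against 37.8% of all genes tested. Of the 23, 10 were higher and 4 lower, with a median log2 of 0.08, and 0 differed by a log2 of 1. With DESeq2 6 were higher, as without line 1 replicate 1 or without either line 2 replicate. The maintenance methyltransferase gene Dnmt1 was at 419 and 435 CPM in line 1 and 428 and 424 in line 2 (adjusted p = 0.96) and the de novo enzyme gene Dnmt3a at 95.7 and 95.6 CPM in line 1 and 94.4 and 98.2 in line 2 (adjusted p = 0.87). Dnmt3l, the catalytically inactive cofactor, differed most, at 28.6 and 31.5 CPM in line 1 and 53.7 and 56.8 in line 2 (log2 0.88 ± 0.070, adjusted p = 2e-08), followed by Tet2, which oxidises methylcytosine, at 285 and 288 CPM in line 1 and 214 and 215 in line 2 (log2 -0.42 ± 0.038, adjusted p = 1.3e-07). Dnmt3b (log2 0.32), Uhrf1 (log2 0.13) and Zfp57, which protects methylation at imprints (log2 0.26), were slightly higher. Methylation itself was not measured in these libraries, and its part in any of the differences was not tested.

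Pluripotency genes were often called, but most differed by small amounts. Of 19 naive genes 5 were higher and 7 lower (median log2 -0.01), and of 16 core genes 8 were higher and 4 lower (0.11). In each of these lists 12 genes were called, against 37.8% of all genes tested. A log2 difference of at least 1 was seen in 0 naive genes and 1 core gene. Nanog (adjusted p = 0.71), Sox2 (adjusted p = 0.1) and Zfp42 (adjusted p = 0.057) were not called, and Klf5 (log2 0.36) and Socs3 (log2 0.61) were the naive genes highest in line 2. Of 15 formative and primed genes 8 were higher and 0 lower (median log2 0.29). Sox3, an X-linked SOX factor, was at 1.63 and 1.78 CPM in line 1 and 10.9 and 10.8 in line 2 (log2 2.67 ± 0.18, adjusted p = 2.6e-09), and Otx2, a defining formative factor, at 1.31 and 0.825 CPM in line 1 and 0.732 and 0.786 in line 2 (adjusted p = 0.36). Feedback genes of FGF and ERK signalling went the same way, with 9 of 18 higher and 0 lower (0.17): Spry4 (log2 1.66; adjusted p = 0.078 with DESeq2), Etv4 (log2 1.28), Spry1 (log2 1.10) and Dusp6 (log2 0.94). Their abundant relatives Etv5 (679.5 and 679.8 CPM in line 1 and 705 and 709 in line 2) and Spry2 (141 and 147 CPM in line 1 and 146 and 136 in line 2) were not called (adjusted p = 0.12 and 0.59). The transcription factor gene Tfap2c (chromosome 2, 172545678 to 172558622), known in trophoblast, germ cells and naive human cells, was at 0.29 and 0.475 CPM in WT, 10.9 and 9.97 in line 1 and 115 and 110.4 in line 2 (log2 3.43 ± 0.076, adjusted p = 1e-15). Both lines had left the WT level, line 2 far more than line 1.

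Among genes lower in line 2, the largest difference by the rule for named genes was at Vnn1, a pantetheinase, at 12.2 and 11.9 CPM in WT, 22.7 and 22.2 in line 1 and 2.93 and 3.03 in line 2 (log2 -2.91 ± 0.13, adjusted p = 6.6e-12). After Igf2os and Igf2 came the matrix glycoprotein gene Thbs1 (log2 -2.24), the small heat shock gene Cryab (log2 -2.23), Col1a1, the myelin gene Pmp22 (log2 -2.14) and the cytochrome genes Cyp1b1 (log2 -2.13) and Cyp7b1 (log2 -1.98). Of 24 tested genes of the basement membrane and of collagen processing, 15 were lower and 3 higher (median log2 -0.25). Serpinh1, the collagen chaperone, was at 396 and 394 CPM in line 1 and 186 and 182 in line 2 (log2 -1.11 ± 0.034, adjusted p = 9.9e-14). The type IV collagen genes Col4a1 (80.1 and 83 CPM in line 1 and 34.5 and 35 in line 2) and Col4a2 (69.6 and 71.1 CPM in line 1 and 22 and 24.4 in line 2), which share a promoter region, were lower by log2 -1.23 and -1.60. Sparc was at 548 and 557 CPM in line 1 and 325 and 331 in line 2 (log2 -0.75 ± 0.030, adjusted p = 3.6e-12), while the laminin genes Lamb1 (log2 0.09) and Lamc1 (log2 0.01) were not called (adjusted p = 0.32 and 0.87). Primitive endoderm is an embryonic source of such matrix, and of its 16 tested markers 5 were lower and 2 higher (0 higher with DESeq2 or without line 1 replicate 1 or line 2 replicate 1). The summed level of all 21 markers was 1708 and 1729 CPM in line 1 and 1381 and 1388 in line 2. Of the 16, 6 are also on the matrix list, among them 4 of the 5 lower ones (Lama1, Col4a1, Col4a2 and Sparc). The 15 markers that are not on it summed to 22.4 and 23.7 CPM in line 1 and 22.1 and 21.0 in line 2. Among those Srgn was lower (log2 -0.88), Gata4 (log2 0.78) and Dab2 (log2 1.15) were higher, and Gata6 was at 0.653 and 1.08 CPM in line 1 and 0.976 and 1.01 in line 2 (adjusted p = 0.68) and Sox17 at 0.598 and 0.952 CPM in line 1 and 0.61 and 0.899 in line 2 (adjusted p = 1).

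Of 18 tested genes of the list of endoplasmic reticulum chaperones and the unfolded protein response, 13 were lower in line 2 and 0 higher, with a median log2 of -0.41. Hspa5, the main chaperone BiP, was at 983 and 994 CPM in line 1 and 712 and 711 in line 2 (log2 -0.47 ± 0.027, adjusted p = 2.3e-10), and Hsp90b1, Pdia6 and Calr differed by log2 -0.41, log2 -0.47 and log2 -0.40. Herpud1, Sel1l and Xbp1 were not called (adjusted p = 0.84, adjusted p = 0.34 and adjusted p = 0.27). Of 15 trophoblast genes 7 were lower and 3 higher. The simple-epithelium keratin genes Krt8 (119 and 119.5 CPM in line 1 and 49.9 and 47.2 in line 2; log2 -1.29 ± 0.047, adjusted p = 8.5e-13), Krt18 (log2 -1.19) and Krt7 (log2 -1.51) were lower, and Cdx2 by less (log2 -0.39), whereas Tfap2c and Eomes (log2 1.67) were higher. Of 16 feeder fibroblast markers 11 were tested, 5 higher and 4 lower (2 or 3 higher with DESeq2 or without either line 1 replicate or line 2 replicate 1). The 16 markers summed to 59.6 and 62.3 CPM in line 1 and 48.8 and 45.0 in line 2, and 3 of them (Col3a1, Postn and Lum) had 0 counts in both line 1 libraries. Col1a1 was at 11.3 and 12.9 CPM in line 1 and 2.93 and 2.53 in line 2 (log2 -2.15), Col1a2 at 1.03 and 1.33 CPM in line 1 and 1.34 and 1.97 in line 2 (adjusted p = 0.25) and Thy1 at 2.67 and 2.86 CPM in line 1 and 3.23 and 3.54 in line 2 (adjusted p = 0.3). The part of feeder or differentiated cells in the matrix genes was not tested.

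**Figure D4:**
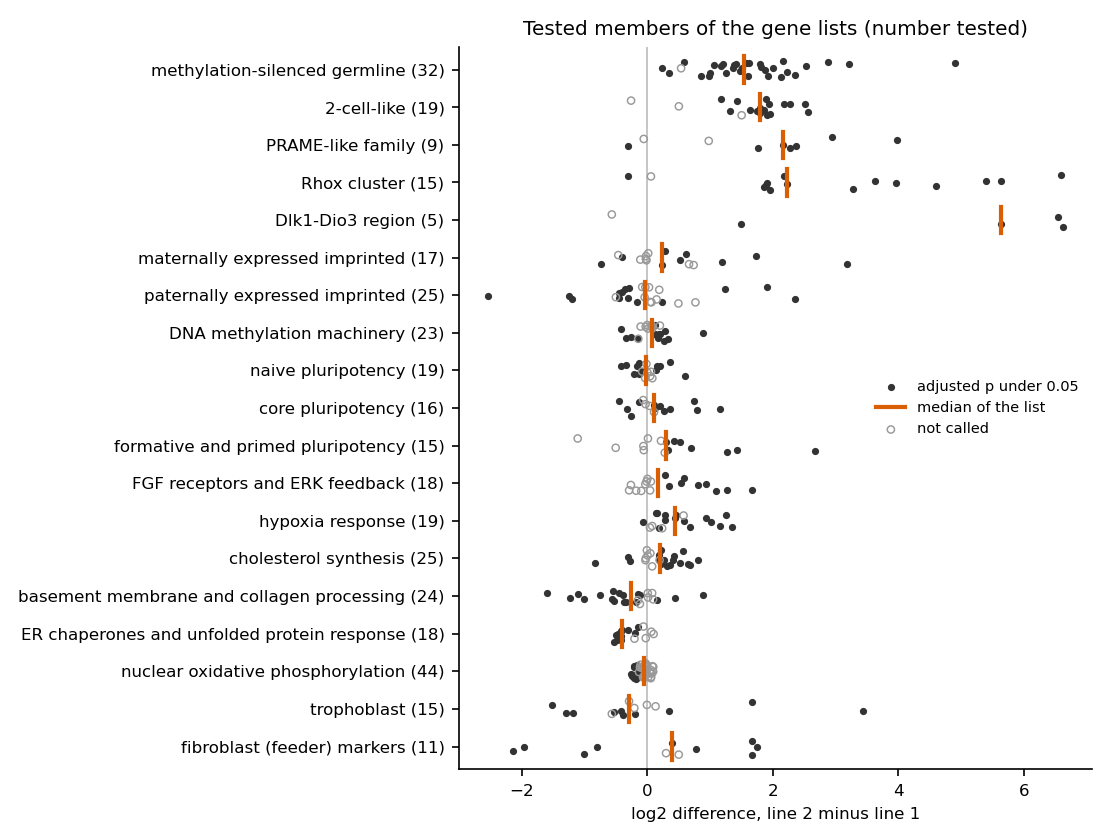
Log2 difference, line 2 minus line 1, of each tested member of 19 gene lists (filled, adjusted p under 0.05; open, not called), with the list's median as an orange bar and the number tested in brackets. Germline, 2-cell-like, PRAME-like, Rhox and Dlk1-Dio3 genes lie mostly above 1, while endoplasmic reticulum chaperones have a median of -0.41.

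Line 2 also differed along contiguous stretches of chromosome. Genes with a mean of at least 10 CPM over the 3 OdG groups were ordered by RefSeq position (9292 genes), and runs of neighbours were collected in which every gene was called in the same direction and differed by a log2 of 0.5 or more. This rule was set after the data were seen. In 3 places at least 5 neighbours in a row were lower in line 2, in runs of 20, 19 and 6 genes, and no run of higher genes exceeded 3. Shorter lower runs were 3 of 4 genes, 6 of 3 genes and 36 of 2 genes, besides 316 single genes. Among those of 3 genes, Leprotl1 to Tnks (34135572 to 34965690) and Eri1 to Lonrf1 (35465265 to 36249359) lay near each other on chromosome 8. The 45 genes in the 3 long runs stood at 33.4% to 61.4% of their line 1 level, with a median log2 difference of -0.97. Line 1 lay near WT over the same genes (median log2 0.06), and both line 2 libraries lay below both WT libraries in all 45. The share over all genes was 39.9%. It is not a like background, since the rule picked the 45 for line 2 values below those of line 1.

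The longest run lay on chromosome 6 from 112619851 to 113631634 (GRCm38.p6), from the DNA repair gene Rad18 to the tumour suppressor gene Vhl, about 1.01 Mb. Its 20 genes, lower by the rule itself, had a median log2 difference of -1.04. Of 26 tested genes inside it, including those of low level, 22 were lower and 0 higher. Besides the 20, Prrt3 (log2 -0.52) and Fancd2os (log2 -0.87) were lower, and Lhfpl4, Cpne9, Cidec and Il17re were not called. The Fanconi anaemia gene Fancd2 was at 201 and 192 CPM in WT, 171 and 166 in line 1 and 72.6 and 77.2 in line 2 (log2 -1.17 ± 0.045, adjusted p = 1.6e-12). Arpc4, a subunit of the actin-nucleating ARP2/3 complex, was at 242 and 244 CPM in WT, 322 and 321 in line 1 and 154 and 154 in line 2 (log2 -1.06 ± 0.035, adjusted p = 2.2e-13), and Setd5, a chromatin regulator, at 686 and 636 CPM in WT, 530.4 and 538 in line 1 and 305 and 308 in line 2 (log2 -0.80 ± 0.036, adjusted p = 1.2e-11). Both line 2 libraries were the lowest for all 3, while line 1 lay below WT for Fancd2 and Setd5 and above it for Arpc4. Past Vhl the next genes were Irak2 (log2 -0.34), Tatdn2 (log2 -0.87) and Sec13 (log2 -1.19). The gene of that level before Rad18, Edem1, was at log2 -0.15 (adjusted p = 0.039).

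The next run lay on chromosome 2 from 166906041 to 168742370, from Cse1l, a nuclear export factor, to Atp9a, over 1.84 Mb and 19 genes (median log2 -0.90). Of 26 tested genes there 23 were lower and 0 higher, 19 of them lower by the rule itself. Of the others, all of low level, Snord12, Cebpb, Fam65c and E130018N17Rik were lower, and Dpm1, Kcng1 and Nfatc2 were not called. Cse1l was at 684 and 683 CPM in WT, 816 and 827 in line 1 and 434 and 429.9 in line 2 (log2 -0.93 ± 0.029, adjusted p = 1.1e-13). Arfgef2, which precedes it, was at 71.3 and 75.7 CPM in line 1 and 67.5 and 70.8 in line 2 (adjusted p = 0.2). After Atp9a, Sall4, a pluripotency factor, was lower by less (598 and 601 CPM in line 1 and 433 and 441 in line 2; log2 -0.46), as was Zfp64 (log2 -0.74), which is on the list of maternally expressed imprinted genes, and Zfp217 was higher (log2 0.45). Snai1, on the list of primitive streak genes, lies inside this run (log2 -0.83).

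The shortest of the 3 lay on chromosome 11 from 60777525 to 60952811, from Smcr8 to Map2k3, with 6 genes over 175 kb and a median log2 of -1.05. Shmt1, an enzyme of one-carbon metabolism, was at 226 and 217 CPM in WT, 281 and 273 in line 1 and 150.1 and 147 in line 2 (log2 -0.90 ± 0.038, adjusted p = 5.8e-12). The genes beside it differed little, with Top3a before it at log2 -0.17 and Usp22 after it at log2 0.09 (adjusted p = 0.081). In EG1, 2 of the 45 genes were called between KO and WT, where 7.66% of all genes were called. The median log2 of the 45 there was 0.01. The longest lower run in EG1 by the same rule was 5 genes, the near-identical Zscan4 copies. RNA counts hold no measure of DNA copy, and the part of DNA content in these stretches was not tested.

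**Figure D5:**
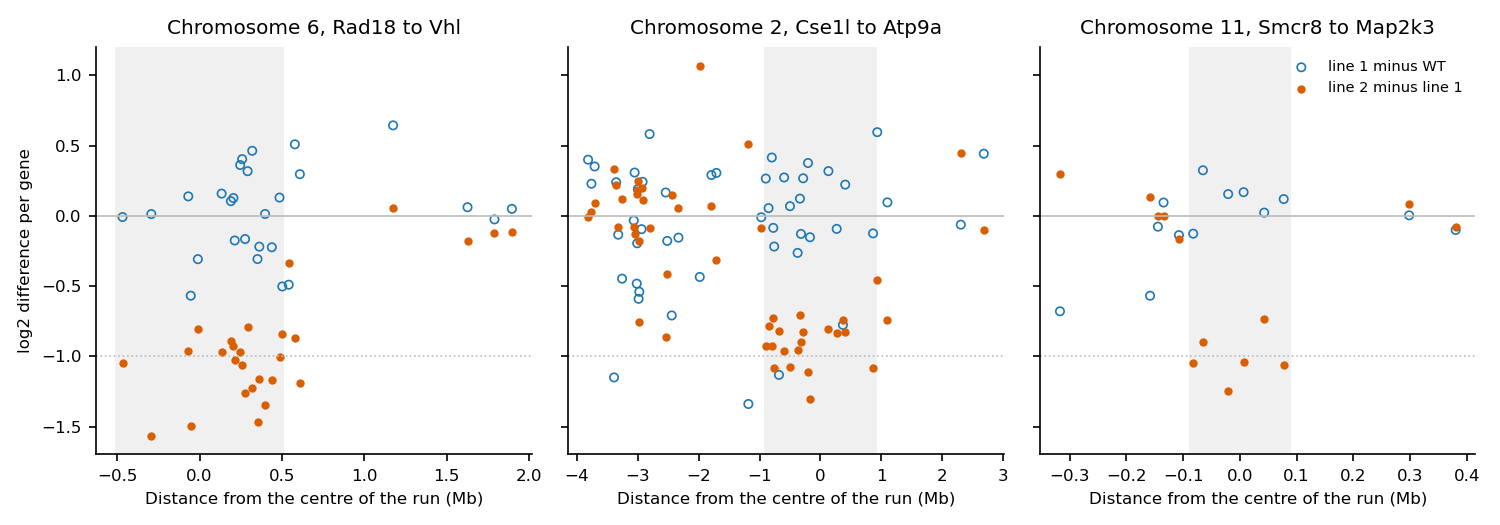
Log2 difference per gene (mean of at least 10 CPM) against distance in Mb from the centre of each run on chromosomes 6, 2 and 11, for line 2 minus line 1 (filled) and line 1 minus WT (open), computed on mean CPM with 0.1 added; shading marks the run and the dotted line a log2 of -1. Filled points sit near -1 inside the shading and most open points there scatter around 0, apart from a pair of lower ones on chromosome 2.

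The genes of the 3 stretches account for 26 of the 266 genes lower in line 2 by a log2 of at least 1 (9.77%), and for 10 of the 21 such genes with at least 100 CPM in either line. The endoplasmic reticulum insertase gene Emc3 and the coat protein gene Sec13, among the 6 largest abundant differences, lie in the chromosome 6 stretch or just past its end. The others of these were Saraf, a regulator of calcium entry (101 and 109 CPM in line 1 and 37.5 and 39.8 in line 2; log2 -1.44 ± 0.053, adjusted p = 1e-12), Col2a1, Krt8 and the X-linked Klhl13 (573 and 571 CPM in line 1 and 243 and 238 in line 2; log2 -1.25 ± 0.033, adjusted p = 1.2e-14).

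Vhl, which marks hypoxia-inducible factors for destruction, was at 101 and 99.2 CPM in WT, 67.9 and 73.1 in line 1 and 39.2 and 39.4 in line 2 (log2 -0.84 ± 0.055, adjusted p = 1.8e-09). Of 19 hypoxia response genes 14 were higher in line 2 and 1 lower, with a median log2 of 0.45; without line 2 replicate 2, 9 were higher. The mTORC1 inhibitor gene Ddit4 was at 172 and 175 CPM in WT, 44.1 and 47.4 in line 1 and 119 and 114 in line 2 (log2 1.35 ± 0.048, adjusted p = 6.4e-13). Egln3, an oxygen-sensing prolyl hydroxylase, was at 145 and 139 CPM in WT, 28.1 and 26 in line 1 and 65 and 63.6 in line 2 (log2 1.25 ± 0.058, adjusted p = 1.9e-11), and Ndrg1 at 261 and 259 CPM in WT, 48.5 and 47.7 in line 1 and 95.7 and 87.5 in line 2 (log2 0.93 ± 0.051, adjusted p = 1.7e-10). For these 3 genes all libraries of both lines lay below WT, line 1 the furthest. Slc2a1, the main glucose transporter, was the lower one, at 896 and 909 CPM in line 1 and 855 and 864 in line 2 (log2 -0.07 ± 0.024, adjusted p = 0.03), a call lost with DESeq2, with the replicate block and without any of the 4 line libraries. The part of Vhl in this list was not tested.

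Cholesterol synthesis genes were higher in line 2 at 15 of 25 tested members and lower at 3, with a median log2 of 0.20. Dhcr7, the last reductase of the pathway, was at 132 and 129.7 CPM in WT, 47 and 46.2 in line 1 and 76.4 and 73.1 in line 2 (log2 0.68 ± 0.049, adjusted p = 6.7e-09), and Fdft1, squalene synthase, at 93.6 and 96.9 CPM in WT, 66.1 and 66.9 in line 1 and 103 and 105 in line 2 (log2 0.65 ± 0.044, adjusted p = 3e-09). Line 2 lay between line 1 and WT for Dhcr7 and above WT for Fdft1. Hmgcs1, the enzyme at the entry to the mevalonate pathway, went against the list, at 279 and 297 CPM in WT, 219.9 and 222 in line 1 and 120.0 and 127 in line 2 (log2 -0.84 ± 0.042, adjusted p = 5.4e-11). Nuclear genes of oxidative phosphorylation were lower at 13 of 44 and higher at 0 (median log2 -0.05), though at 5 or 6 with DESeq2 or without line 1 replicate 1 or either line 2 replicate.

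EG1 gives the same genes in libraries that share nothing with the lines. Of the 709 genes higher in line 2 by a log2 of at least 1, 604 were tested in EG1, and 118 were called between EG1 KO and WT (19.5%, against 7.66% of all genes there), 21 higher in KO (3.6% of all genes were) and 97 lower. Their median log2 difference in EG1 was -0.13. The 709 include 16 genes of the 2-cell-like list, which holds near-identical copies. Of its 19 tested members 18 were lower in EG1 KO. Of the 266 lower genes 213 were tested there and 17 were called (7.98%). In EG1 Rhox5 was at log2 0.16, adjusted p = 0.12, Fkbp6 at log2 0.18, adjusted p = 0.13, Gab1 at log2 0.04, adjusted p = 0.58 and Tfap2c at log2 -0.02, adjusted p = 0.85, so that none of these 4 was called with EG1 KO. Of the germline list 31 members were tested in EG1, with 0 higher and 5 lower, where 7.66% of all genes were called in either direction.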

How the data were processed

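Groups come from the sample titles. The protocols in the labels name Trizol extraction and the NEBNext Ultra kit. Per the submitters' processing notes, the tools were CASAVA, HISAT2 (2.1.0) and featureCounts (1.6.4), with DESeq2 also listed, on mm10. For strand and annotation the answer is "not given in the sources used here". Raw counts per gene symbol, whole numbers, were deposited by the authors in 1 table for each parent. They were analysed with edgeR 4.0.16: filterByExpr, TMM scaling and a quasi-likelihood fit with a mean for each group over the 6 OdG libraries, of which the contrast was line 2 minus line 1. Tests were two-sided, with Benjamini-Hochberg adjustment over every tested gene and a threshold of 0.05. EG1 was fitted within its own table. Values after ± are standard errors of log2 differences. The groups, members and gene lists were chosen with earlier results of these data known. Named genes were the largest called differences without overlap between lines (at least 5 or 100 CPM in the higher line), up to 4 called members per list, and members that were not called. Further genes of the lists, stretches, families and promoters were named after their values were seen. Positions came from RefSeq GRCm38.p6, matched by symbol for 14372 of 14413 tested genes. Alternatives were DESeq2 1.42.0, other size factors, no filter, a replicate block, the 4 KO libraries alone and each library left out. Scripts were tested on simulated data.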

Additional observations from a re-analysis of the deposited data

How the results depend on the processing

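The number of genes called between the lines was 5454, and DESeq2's Wald test called 3220, of which 1540 were higher and 1680 lower in line 2. Leaving out each OdG library in turn gave 3680 to 6291 called genes, 1815 to 3056 of them higher and 1862 to 3247 lower. The 975 genes with a log2 difference of at least 1 became 234 in a test against a 2-fold difference. In EG1, 1074 genes were called between KO and WT, 659 with DESeq2, and 638 to 1213 over fits that each left out a library. The Etl4 difference ranged from 0.15 to 0.20 on the log2 scale with each library left out, and it missed the threshold without line 1 replicate 1 or line 2 replicate 2. With the replicate number as a block, 5334 genes were called between the lines. Same-numbered libraries did not deviate together (correlations of -0.026, -0.051 and 0.078), so the numbers were not taken as pairs. The 3 long runs of lower neighbours were found under every alternative run, with 42 to 45 genes at 10 CPM. The rule for runs, its minimum of 5 CPM (49 genes) and the analyses without the stretches or without chromosome X were chosen after seeing the data. Depth limits what can be said of genes under 1 CPM, where a library held fewer than 20 counts. Among genes named as not called, several changed sign on the log2 scale when 1 library of a line was left out: Dnmt1 (-0.032 to 0.021, and 0.00069 with DESeq2's size factors), Dnmt3a (-0.020 to 0.037), Gata6 (-0.12 to 0.60), Herpud1 (-0.12 to 0.070), Lamc1 (-0.0049 to 0.016), Nanog (-0.038 to 0.0051), Rhox9 (-0.0050 to 0.11), Sox17 (-0.33 to 0.34), Spry2 (-0.086 to 0.019), Xlr3a (-0.044 to 0.0065) and Xlr5a (-0.083 to 0.018).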

Other observations

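Among the shorter runs of lower neighbours, 3 Hoxa genes and an RNA gene on chromosome 6 were next to each other: Hoxa7 was at 58.5 and 58 CPM in line 1 and 22.9 and 22.6 in line 2 (log2 -1.36 ± 0.068, adjusted p = 4.7e-11), Hoxa9 at 109.9 and 115 CPM in line 1 and 55.6 and 48.6 in line 2 (log2 -1.11), Hoxa10 at 77.8 and 81.6 CPM in line 1 and 45.7 and 46.6 in line 2 (log2 -0.79) and the RNA gene Mira at 28.9 and 29.5 CPM in line 1 and 11.3 and 10.4 in line 2 (log2 -1.43). These homeobox genes pattern the trunk. Of 12 tested genes of the cluster, Hoxa11os included, 4 were lower and 2 higher in line 2. Bhmt, a betaine-dependent methyltransferase, began a run of 4 on chromosome 13 (75.6 and 78.8 CPM in line 1 and 32.6 and 30.8 in line 2; log2 -1.28 ± 0.060, adjusted p = 1.9e-11), and Csrp1 a run of 4 on chromosome 1 (152 and 158 CPM in line 1 and 97.5 and 98.6 in line 2; log2 -0.66 ± 0.042, adjusted p = 1.5e-09).

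Gapdh, often used as a reference gene, was the only called gene whose libraries overlapped between the lines, at 24.9 and 14.2 CPM in line 1 and 22.7 and 90.2 in line 2 (log2 1.53 ± 0.44, adjusted p = 0.011). Its count was high in line 2 replicate 2 alone, and without that library the log2 difference was 0.20. The count was low beside that of other glycolysis genes such as Pgk1, for a reason that was not tested. Other glycolysis genes were far more even between replicates, for example Pgk1 at 1053 and 1063 CPM in line 1 and 1132 and 1174 in line 2 (log2 0.12) and Slc2a3 at 4535 and 4570.2 CPM in line 1 and 3334 and 3374 in line 2 (log2 -0.44). Myc, which drives growth genes, was at 8.75 and 8.49 CPM in WT, 20.1 and 19.5 in line 1 and 7.93 and 8.54 in line 2 (log2 -1.26 ± 0.11, adjusted p = 4.8e-08). Lef1, a Wnt effector, was at 120.0 and 115 CPM in WT, 58 and 59.2 in line 1 and 97.6 and 92.8 in line 2 (log2 0.70 ± 0.048, adjusted p = 3e-09), while the Wnt target Axin2 was at 212 and 216 CPM in line 1 and 209 and 207 in line 2 (adjusted p = 0.38). The genes of these 2 paragraphs were chosen after their values were seen.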
